A study of Homo sapiens with 16 samples.

Results

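Lyve1, Folr2, Cd209f, Cd209g, Fcna, Cbr2 and Timd4 are 7 genes that mark tissue-resident macrophages, and they were followed here through single cell RNA sequencing (scRNA-seq) of mouse mammary tumors. They were chosen by their measured UMI levels over the deposited cell clusters and pools, and by being found together in single cells of the cluster Macro-M2. They are 7 of 32285 genes in the count files. Because these same values chose the genes, and because the clusters were built on genes that include all 7, the levels below are a description with no test. Macro-M2 held 3567 of 25723 long-term cells, 670 of 15094 short-term T22 cells and 1174 of 8007 short-term T127 cells.

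The tumors were LPA1-T22 (T22) and LPA1-T127 (T127), transplants from mice with an LPA1 receptor transgene in the mammary epithelium, grown in the mammary fat pad of female FVB mice bought at 6 weeks of age. Treatment was vehicle or olaparib, a PARP inhibitor, at 50 mg/kg by mouth each day, begun 14 days after transplantation for T22 and, as the sources used here differ, 10 or 14 days for T127. In the long-term experiment (20 days, 8 pools) T22 and T127 grew alone or in opposite fat pads of the same host, with T127 transplanted later than T22, whereas in the short-term experiment (4 or 8 days) each model had 4 pools of its own. Every pool mixed vehicle and olaparib tumors, which tumor a given cell came from could not be read from the tables, and vehicle was therefore not compared with olaparib. For the same reason, pool ranges and counts of pools below do not measure the spread between tumors.

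Tissue-resident macrophages settle in healthy organs, renew there and clear dying cells, in contrast to macrophages that arise from monocytes recruited from blood. In many organs, the mammary gland included, cells that carry the hyaluronan receptor LYVE1 and the folate receptor FOLR2 lie near vessels and hold high CD206 (Mrc1) and low MHC class II. Of the other genes, Cd209f and Cd209g encode C-type lectins of the DC-SIGN family, Fcna encodes ficolin A, which starts the lectin pathway of complement, Timd4 encodes TIM-4, a receptor for phosphatidylserine on dying cells, and Cbr2 encodes a carbonyl reductase.

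The deposited tables hold UMI counts, in which a UMI is a tag that counts each captured RNA molecule once. The 8 long-term pools held 34755906 to 44032925 UMIs each, the T22 pools 40270841 to 42436039 and the T127 pools 49690430 to 55600377. Long-term pools 1 and 2 shared 3939 cell barcodes, pools 2 and 3 shared 1082 and pools 1 and 3 shared 987, and between 0 and 11 were common to each of the remaining 117 pairs. Each shared barcode was therefore counted once, at its deepest copy, which left 25723 of 30845 long-term cells. Whether pools 1 to 3 are separate captures could not be read from the tables, and if they are not, the long-term pool ranges and counts of pools below rest on fewer than 8 captures. Levels below are CPM, the UMIs of a gene per 1000000 UMIs of the cells of a cluster. With all copies kept, the level of the 7 genes summed in Macro-M2 was 415 in place of 405 CPM, and every other long-term value recomputed that way stayed within the spread between pools. Levels are compared for the same gene between clusters or experiments, never between genes, and 95% intervals cover counting error only.

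The macrophage label of Macro-M2 was checked by the level of 5 macrophage markers. Adgre1, Csf1r, C1qa, C1qb and Cd68 were all detected there, with summed levels of 15891 CPM in the long-term, 10476 CPM in the T22 and 6673 CPM in the T127 experiment. In the same order, the sum was 161, 25.6 and 28.3 CPM in endothelial cells. In CD16-CDKN1C it was 15633, 11990 and 10883 CPM.

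Lyve1, the hyaluronan receptor, was at 33.9 CPM (95% interval 32.2 to 35.8) in long-term Macro-M2 cells. Over the 8 pools its lowest level was 12.0, its median 37.7 and its highest 44.9 CPM. In short-term T22 Macro-M2 cells a single Lyve1 UMI was counted, in pool 3. In short-term T127 Macro-M2 cells Lyve1 was at 0, 0, 7.57 and 4.65 CPM in pools 1 to 4, so that all long-term pools lay above all short-term pools.

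Folr2, the folate receptor of macrophages, was at 119.9 CPM (interval 117 to 123) in long-term Macro-M2 cells, with a lowest pool of 95.3, a median of 123 and a highest pool of 148 CPM. In T127 it was at 89.96 CPM, and its pools of 76.3 to 113 CPM overlapped the long-term ones. In T22 it was at 2.97 CPM, from 27 UMIs, and its pools of 0.89 to 5.37 CPM lay below every pool of the other experiments.

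The lectin genes Cd209f and Cd209g had the widest spread over long-term pools. Cd209f was at 72.0 CPM over all of them, with a lowest pool of 17.4, a median of 58.8 and a highest pool of 134 CPM. Cd209g was at 19.5 CPM, with a lowest pool of 7.65, a median of 14.5 and a highest pool of 37.9 CPM. In T22 Macro-M2 cells there were 2 UMIs of Cd209f and none of Cd209g, and the count of 0 allows Cd209g at most 0.33 CPM. In T127, Cd209f was at 4.57 CPM and Cd209g at 3.65 CPM, but these rested on few cells, as described further on. Cd209f and Cd209g are similar in sequence, and how reads that fit both were counted is not stated in the sources used here.

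Fcna, the complement lectin, was at 49.8 CPM in long-term Macro-M2 cells (lowest pool 28.4, median 49.6, highest 68.1 CPM). It was at 12.6 CPM in T127, with pools of 9.42 to 14.2 CPM, and at 1 UMI in T22. The long-term, T127 and T22 pools did not overlap.

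Cbr2, the carbonyl reductase, was at 97.0 CPM in long-term Macro-M2 cells (lowest pool 78.7, median 95.8, highest 133 CPM), at 53.7 CPM in T127 (44.0 to 72.0) and at 15.7 CPM in T22 (9.30 to 19.4). Again the pools of the 3 experiments did not overlap. How many of all genes have long-term pools apart from short-term pools was not counted. Nothing is therefore read from such gaps for Lyve1, Folr2, Fcna or Cbr2, and the experiments also differ in models, treatment days and captures.

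Timd4, the receptor for dying cells, was at 13.3 CPM in long-term Macro-M2 cells (lowest pool 5.90, median 13.03, highest 22.2 CPM). It was at 9.44 CPM in T22, with pools of 3.59 to 14.1 CPM, and at 4.78 CPM in T127, with pools of 1.94 to 6.07 CPM. Timd4 was the only 1 of the 7 genes with a higher level in T22 than in T127, and its pools overlapped between all experiments.

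**Figure D1:**
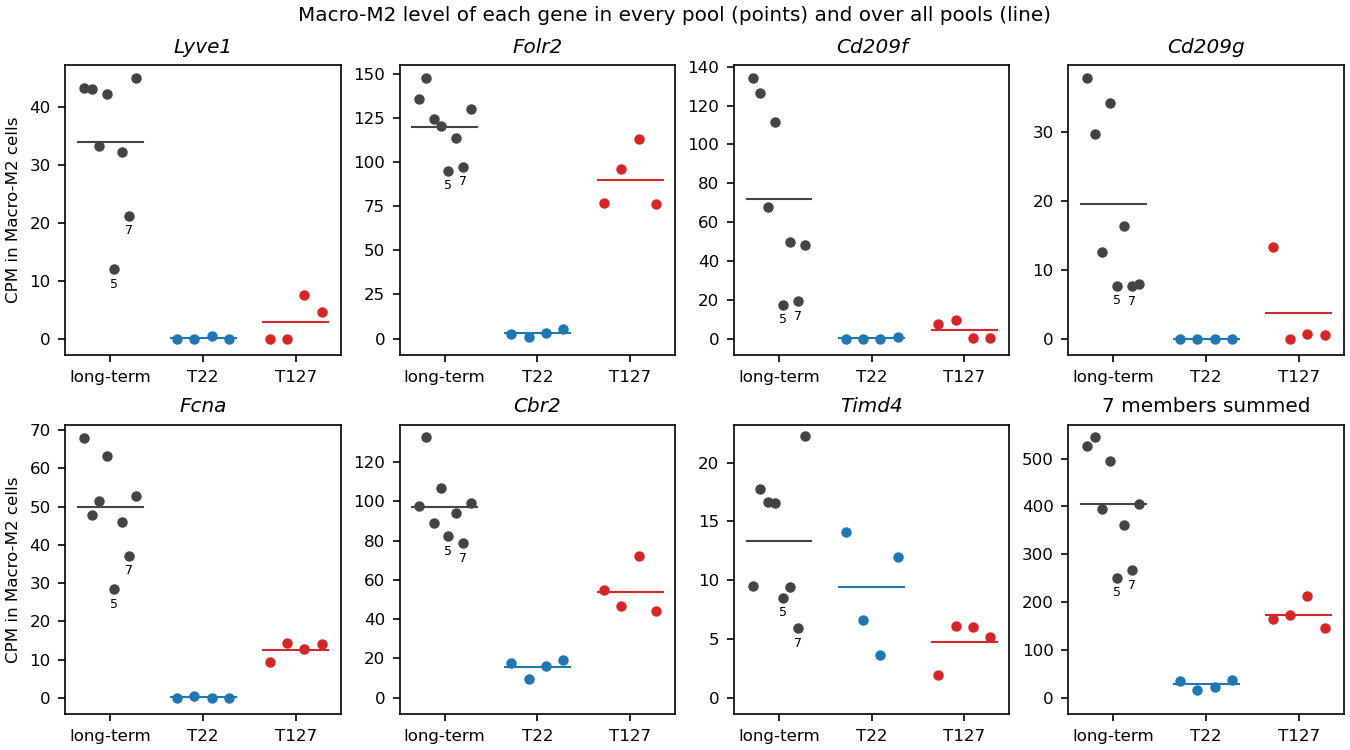
Level in Macro-M2 cells, in CPM (linear axis), of each of the 7 genes and of their sum, with a point for each pool and a line at the level over all pools of the long-term (black), short-term T22 (blue) and short-term T127 (red) experiment. The sum is at 405 CPM in the long-term, 28.6 CPM in the T22 and 172 CPM in the T127 experiment, and long-term pools 5 and 7, marked by number, are the lowest of their experiment for every gene.

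Long-term pools 5 and 7 had the lowest levels of the 8 pools for 7 of 7 genes. Of 10900 genes with at least 50 UMIs in long-term Macro-M2 cells, 3.94% had these pools as their lowest. The 7 genes are found in the same cells, so they do not count as 7 separate observations. The pair of pools was also picked because the 7 genes were lowest there. Nothing is therefore read from 7 of 7 genes beside this share. The highest pool exceeded the lowest by 1.55 times for Folr2, 1.69 times for Cbr2 and 2.40 times for Fcna. For Lyve1 that ratio was 3.76, for Timd4 3.77, for Cd209g 4.95 and for Cd209f 7.69.

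Summed over the 7 genes, the level was 251 CPM in pool 5 and 268 CPM in pool 7, against 362 to 545 CPM in the other 6 pools. The chemokine gene Ccl8 had its lowest levels in the same pools, 547 and 536 CPM against 865 to 1649 CPM elsewhere, while Mrc1 was at 501 and 551 CPM there, inside the range of 456 to 765 CPM of the rest. The resident macrophage genes listed further on summed to 5592 and 5700 CPM there, against 6560.5 to 8829.5 CPM elsewhere. The complement C5a receptor gene C5ar1 was at 177 and 188 CPM, against 195 to 296 CPM. The hemoglobin markers of red cells ran at 3662 to 4855 CPM in pools 5 to 8 and at 1245 to 1438 CPM in pools 1 to 4, so that they set pools 5 and 7 apart only together with pools 6 and 8. Neutrophil markers were at 149.6 and 585 CPM in pools 5 and 7 and at 83.1 to 453 CPM in the rest, and epithelial markers at 107 and 122 CPM against 88.6 to 103 CPM. The part of other cells in these differences was not tested.

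Levels were then followed over the 22 deposited clusters. In the long-term experiment Macro-M2 was the cluster with the highest level of Lyve1, Folr2, Cd209f, Cd209g and Fcna. It held 54.4% of all Lyve1 UMIs, 54.9% of Folr2, 50.7% of Cd209f, 52.7% of Cd209g and 46.8% of Fcna, against 13.9% of the cells and 13.5% of all UMIs. CD16-CDKN1C came next in share, with 30.4% of Lyve1, 30.2% of Fcna and 26.0% of Cd209f UMIs against 11.1% of all UMIs.

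**Figure D2:**
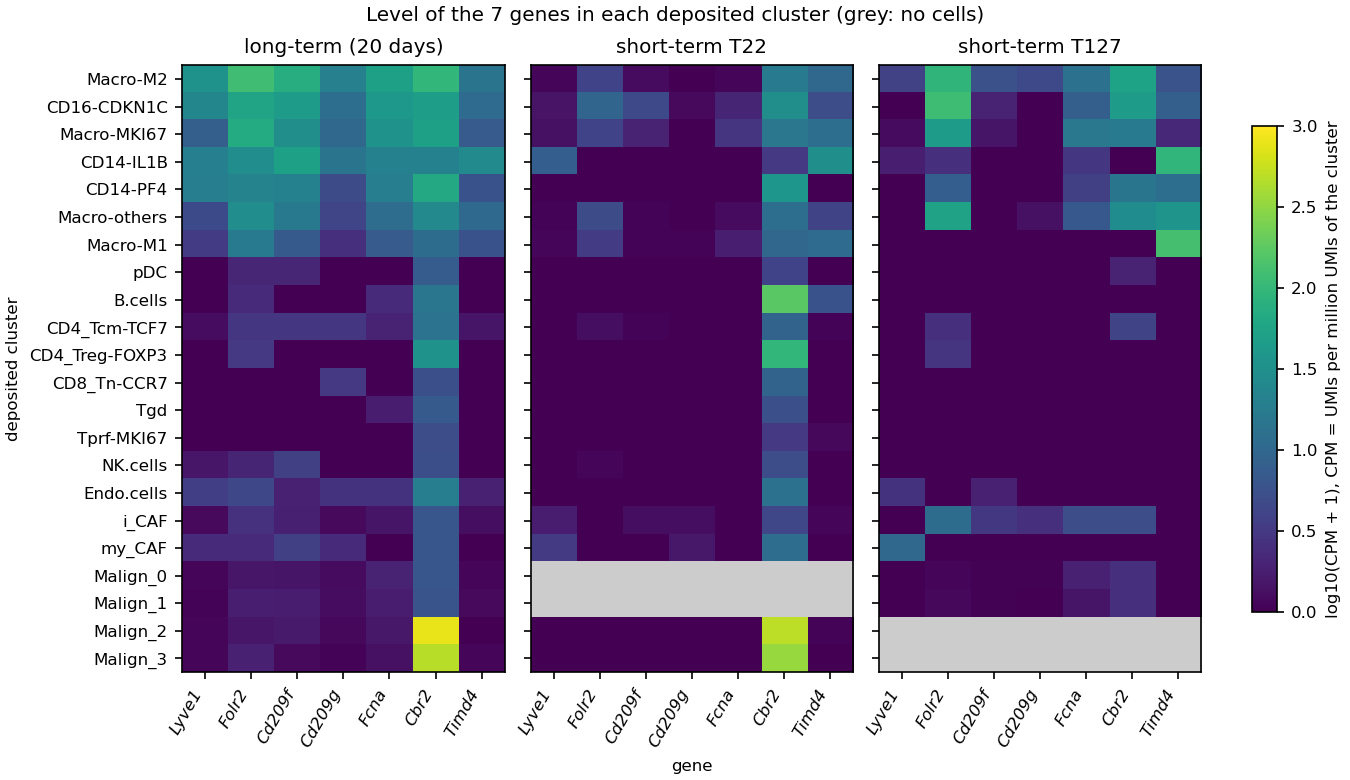
Level of each of the 7 genes (columns) in each deposited cluster (rows) as log10(CPM + 1) in the long-term, short-term T22 and short-term T127 experiments, with grey for clusters without cells. The 6 genes other than Cbr2 are bright in macrophage and monocyte clusters of the long-term experiment, Cbr2 is brightest in Malign_2 and Malign_3, and Timd4 is bright in CD14-IL1B in all 3 panels.

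The order below Macro-M2 differed between genes. For Folr2, Macro-MKI67 was at 69.0 CPM (pools 38.2 to 112) and CD16-CDKN1C at 55.9 CPM (37.7 to 74.9), and these neighbours overlapped. For Fcna, CD16-CDKN1C was at 39.1 CPM (20.5 to 106) and Macro-MKI67 at 32.6 CPM (16.9 to 53.5), both overlapping Macro-M2. For Lyve1, CD16-CDKN1C was at 23.1 CPM (11.6 to 36.3), which also overlapped Macro-M2.

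In T127 the order changed for Folr2 and Fcna. Folr2 was at 115 CPM in CD16-CDKN1C (pools 76.5 to 146) and Fcna at 14.7 CPM in Macro-MKI67 (9.35 to 18.0), each above the level of Macro-M2 but overlapping its pools. Cbr2 was highest in Macro-M2 there, and CD16-CDKN1C followed at 45.0 CPM (32.8 to 58.3), overlapping it. In T22, Folr2 was highest in CD16-CDKN1C, at 8.46 CPM (6.92 to 11.7), above all Macro-M2 pools of that model. Fcna was at 1.90 CPM in T22 Macro-MKI67, from 10 UMIs, and Lyve1 at 6.79 CPM in T22 CD14-IL1B, from 19 UMIs.

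A few levels rested on a single cell. In long-term CD14-IL1B, a cluster of 446 cells, Cd209f was at 49.9 CPM, but 231 of its 312 UMIs were in 1 cell. In the same cluster 1 cell held 91 of 118 Lyve1 UMIs, 66 of 84 Cd209g UMIs and 76 of 178 Folr2 UMIs. In short-term T22 CD16-CDKN1C, 46 of 57 Cd209f UMIs were in 1 cell.

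Cbr2 differed from the other genes by its level in malignant cells of T22. It was at 798 CPM in Malign_2 (pools 699 to 891) and 479 CPM in Malign_3 (382 to 616), the T22 malignant clusters of the long-term experiment, and these pools lay above all Macro-M2 pools. These clusters held 54.8% and 22.1% of all long-term Cbr2 UMIs, and Macro-M2 only 11.6%. In short-term T22, Cbr2 was at 501 CPM in Malign_2 (471 to 528) and 345 CPM in Malign_3 (244 to 404).

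In the T127 malignant clusters Cbr2 was low, at 5.32 CPM in Malign_0 and 4.99 CPM in Malign_1 of the long-term experiment. A sum over the 7 genes therefore has its highest level in a malignant cluster, 800.1 CPM in Malign_2, whereas without Cbr2 the sum was highest in Macro-M2, at 308 CPM (169 to 428). In short-term T22 B cells, a Cbr2 level of 169 CPM came from 36 UMIs, of which 35 were in 1 of 38 cells.

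**Figure D3:**
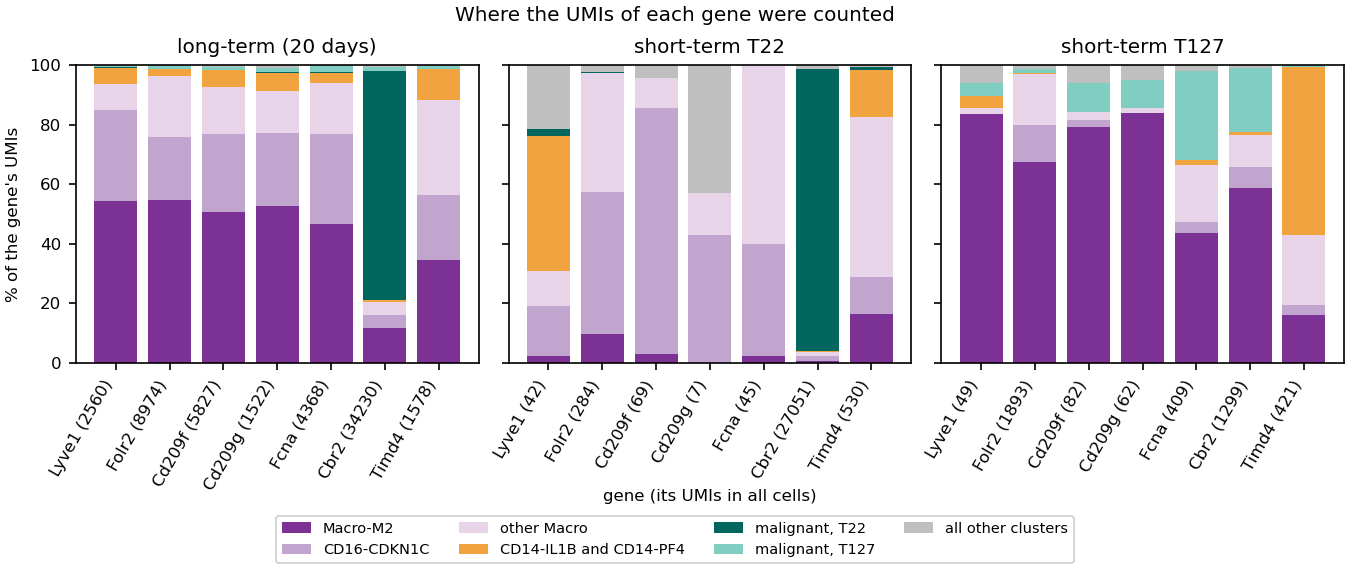
Share of the UMIs of each gene (percent of the gene's UMIs in all cells, whose number is given in brackets) that was counted in Macro-M2, CD16-CDKN1C, other Macro clusters, CD14-IL1B with CD14-PF4, malignant clusters of T22 or T127 and all other clusters, for the 3 experiments. Macro-M2 holds 54.4% of long-term Lyve1 UMIs and 83.7% of T127 Lyve1 UMIs, while the malignant clusters of T22 hold most Cbr2 UMIs in the long-term and T22 panels.

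Timd4 was the other gene whose highest long-term level was outside Macro-M2. In CD14-IL1B it was at 25.4 CPM in the long-term, 30.0 CPM in the T22 and 92.2 CPM in the T127 experiment. The T22 pools of this cluster (22.1 to 39.1 CPM) lay above the T22 Macro-M2 pools and the T127 pools (67.9 to 106 CPM) above the T127 Macro-M2 pools, whereas the long-term pools (5.62 to 66.1 CPM) overlapped. In T127, CD14-IL1B held 54.4% of all Timd4 UMIs and Macro-M2 16.2%, and the nominally higher level of 130 CPM in T127 Macro-M1 came from 4 UMIs in 3 cells.

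The markers in CD14-IL1B went partly against a monocyte name. The dendritic cell markers Flt3, Zbtb46, Xcr1, Clec9a and Ccr7 summed to 371, 1136 and 769 CPM there in the long-term, T22 and T127 experiments, against 12.6, 37.3 and 18.1 CPM in Macro-M2. The 5 macrophage markers summed to 4242, 1323 and 721 CPM, less than in Macro-M2 in each experiment. Epithelial markers summed to 1004, 170 and 647 CPM, nearly all of it Epcam.

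Timd4 was found in 46 of 446, 29 of 143 and 42 of 144 of these cells. The cross-presenting dendritic cell receptor Xcr1 was detected in 78.3% of long-term cells with Timd4 and in 31.3% of those without. The same shares were 89.7% and 78.1% in T22, and 71.4% and 43.1% in T127. Lyve1 was detected in 2 of the 46 long-term cells with Timd4 and Folr2 also in 2. The median depth of the cells with and without Timd4 was 11746 and 13144 UMIs in the long-term experiment and 17434 and 16426 UMIs in T127.

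Within Macro-M2 the genes were not spread evenly over cells. In the long-term experiment the 36 cells with most UMIs of a gene, 1% of the cluster, held 80.9% of Cd209g UMIs, 74.3% of Cd209f and 65.6% of Lyve1. The same number of cells held 40.8% of Timd4 UMIs, 36.5% of Fcna, 24.4% of Cbr2 and 19.3% of Folr2. Lyve1 was detected in 151 cells (4.23%, exact 95% interval 3.60 to 4.95%) with up to 53 UMIs in 1 cell, and Cd209f in 156 cells with up to 166 UMIs. Folr2 was detected in 823 cells (23.1%, 21.7 to 24.5%) with up to 63 UMIs.

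To compare shares at the same depth, each cell was thinned at random to 3000 UMIs and shallower cells were left out, which was the case for 57 of 3567 long-term Macro-M2 cells. Folr2 was then detected in 15.6% and Cbr2 in 12.9% of long-term Macro-M2 cells, Fcna in 7.55%, Timd4 in 3.11%, Lyve1 in 3.05%, Cd209f in 2.76% and Cd209g in 1.62%. T and NK cells, which should lack these genes, gave the background of free RNA. In 1101 of them, thinned alike, Folr2 was detected in 0.54%, Cbr2 in 2.27%, Cd209f in 0.45%, Cd209g in 0.36%, Timd4 in 0.18%, Fcna in 0.09% and Lyve1 in none. Median full depth was 11168 UMIs for Macro-M2 cells and 3678 UMIs for T and NK cells, of which 738 shallower ones were left out.

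In T127 the thinned shares were 14.4% for Folr2, 9.20% for Cbr2, 2.64% for Fcna and 1.53% for Timd4, and 0.51%, 0.34% and 0.26% for Cd209f, Cd209g and Lyve1. Among 336 thinned T127 T and NK cells 0.30% had Cbr2, and the other 6 genes were at 0, which allows a share of up to 0.89% (3 counts). The T127 shares of Cd209f, Cd209g and Lyve1 lie below that limit. In T22 Macro-M2 cells 4.63% had Cbr2, 2.09% Timd4 and 0.75% Folr2, and the other 4 genes were not detected after thinning. The T22 malignant cells of the same experiment had Cbr2 in 66.6%, and its T and NK cells in 1.80%.

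In the long-term experiment the genes were found together in the same cells. In 3510 thinned long-term Macro-M2 cells all 21 pairs of genes were detected together more often than their separate shares within each pool predict, in 8 of 8 pools, and the ratio of observed to expected cells had a median of 6.12 over the pairs. The lowest ratio was 3.59 for Folr2 with Timd4 (63 cells) and the highest 27.9 for Cd209f with Cd209g (51 cells against 1.83 expected, interval 20.8 to 36.7). These ratios describe a set of genes that was chosen for being found together. The long-term experiment also held tumors of both models, whose short-term Macro-M2 levels of most of these genes differed. Expected cells were not split by model, and what part the model had in the ratios was not tested.

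Lyve1 was nested within Folr2. Of 107 thinned cells with Lyve1, 105 also had Folr2, 95 had Cbr2 and 78 had Fcna, whereas only 19.1% of the 549 Folr2 cells had Lyve1. Cd209g was nested in a similar way, since 89.5% of its 57 cells had Cd209f and 75.4% had Folr2. Timd4 cells had Folr2 in 57.8% and Lyve1 in 19.3% of 109 cells.

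Each gene was then set against the other 6 in the long-term cells. In 804 cells with at least 1 other gene, Lyve1 had 463 UMIs, and in the 2706 cells with none it had 0. Folr2 was at 605 CPM in cells with another gene and at 35.3 CPM in cells without, a ratio of 17.1 (interval 15.1 to 19.5). For Fcna the ratio was 22.6 and for Cbr2 30.5. For Timd4 it was 7.82 (5.40 to 11.5), the lowest of those with UMIs on both sides. Cd209f had 956 UMIs in cells with another gene and 7 in cells without, and Cd209g 249 and 1.

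**Figure D4:**
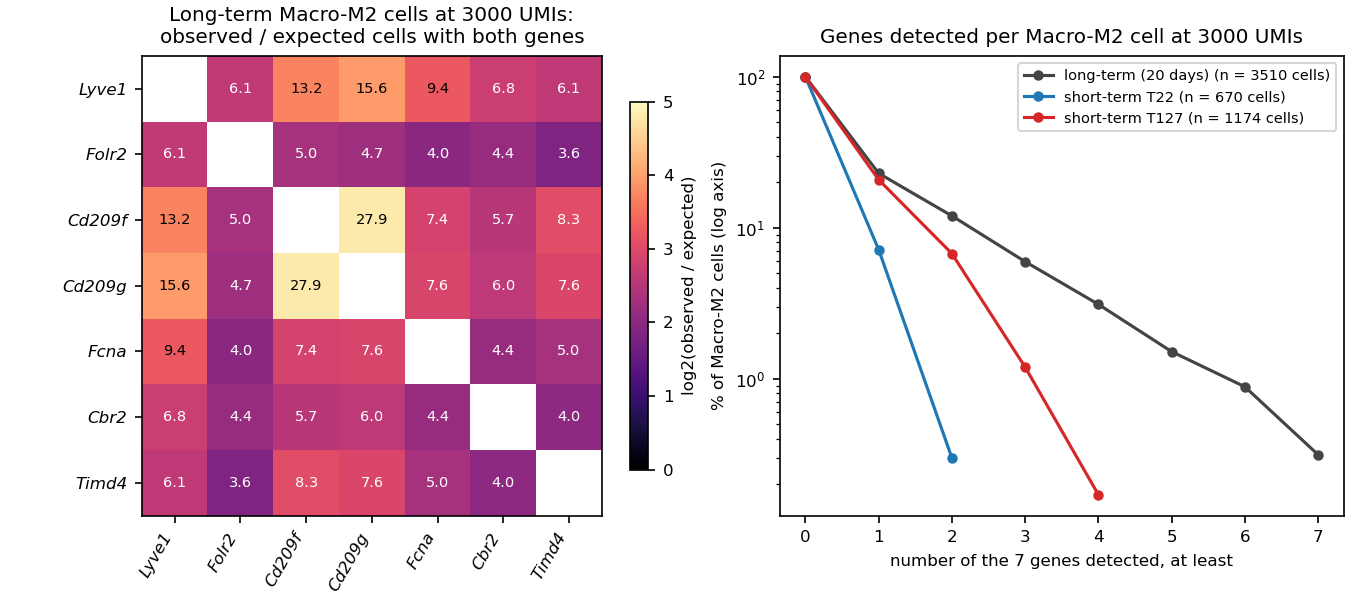
Left, ratio of observed to expected long-term Macro-M2 cells with both genes of a pair at 3000 UMIs per cell (numbers are ratios, colours their log2). Right, percent of Macro-M2 cells (log axis) with at least the given number of the 7 genes, for long-term, short-term T22 and short-term T127 cells. The pair Cd209f and Cd209g has the highest ratio, 27.9, and the long-term line reaches all 7 genes while the T127 line ends at 4 and the T22 line at 2.

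Of the thinned long-term Macro-M2 cells, 22.9% had at least 1 of the 7 genes, 12.0% at least 2, and 11 cells had all 7. The share with at least 2 ranged from 9.65% in pool 7 to 15.7% in pool 2. In T127, 20.8% had at least 1 gene but 6.73% at least 2 and 2 cells at least 4, with a pool range of 6.27 to 7.24% for at least 2. In T22, 7.16% had at least 1 gene and 2 of 670 cells had at least 2, both in pool 4.

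In T127 the pair Folr2 and Cbr2 was detected together in 64 cells against 15.6 expected, a ratio of 4.09 (3.15 to 5.23) and above expectation in 4 of 4 pools. Folr2 and Fcna were together in 15 cells against 4.51 expected (3.33, interval 1.86 to 5.49), also in 4 of 4 pools. All other T127 pairs had 10 cells or fewer. Set against the other 6 genes in T127, the ratio was 12.7 for Cbr2, 8.16 for Fcna and 7.83 for Folr2. For Timd4 it was 1.67 (0.59 to 4.24) and for Cd209f 1.19 (0.28 to 3.86). Cd209g had 11 UMIs in cells with another gene and 1 in cells without, and Lyve1 6 and 0.

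The T127 levels of Lyve1, Cd209f and Cd209g came from 6, 8 and 7 Macro-M2 cells at full depth. In Lyve1, 2 cells held 23 and 12 of 41 UMIs. In Cd209f, 2 cells held 34 and 24 of 65 UMIs. A single pool 1 cell with 14458 UMIs in all held 45 of the 52 Cd209g UMIs, and it was the cell with 24 Cd209f UMIs. Without pool 1 the T127 level of Cd209g was 0.38 CPM in place of 3.65 CPM. Without pool 2 that of Cd209f was 2.78 CPM, and without pool 3 that of Lyve1 was 1.54 CPM.

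Cells with 4 or more of the 7 genes at full depth numbered 353 in the long-term experiment, all of them in the 7 clusters with a macrophage or monocyte name. Of these, CD14-IL1B, whose markers went partly against that name, held 2 cells. Macro-M2 held 214 of them, 6.00% of its cells, CD16-CDKN1C held 79, Macro-others 40 and Macro-MKI67 12. In Macro-M2 these cells carried 64.7% of the UMIs of the 7 genes and in CD16-CDKN1C 67.1%. In T127 there were 12 such cells, 8 of them in Macro-M2 and 1 in the fibroblast cluster i_CAF, outside these 7 clusters. In T22 there were 7, none in Macro-M2. CD16-CDKN1C cells also showed the genes together, with Folr2 in 29 of 34 thinned cells with Lyve1 and Cd209f in 22 of 26 with Cd209g.

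Long-term Macro-M2 cells with at least 2 of the 7 genes at 3000 UMIs (420 cells) were compared with cells that had none (2706 cells) over all other genes. These groups were cut on the 7 genes within clusters made from the same counts, so the ratios below are a description of the cells with no test. Nor were the long-term cells split by tumor model, and what part the model had in these ratios was not tested. Of 8264 genes with at least 50 UMIs, 8.54% were at least 2-fold higher in the cells with the 7 genes and 5.95% at least 2-fold lower, and the median log2 ratio was 0.19. Here and in T127 below, such counts changed with the number of the 7 genes required, as given in the last section. The calls use log2(CPM + 1), which understates differences of low genes. Median full depth was 9630.5 UMIs with the genes and 11518.5 without.

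Of 25 listed genes of resident macrophages, all were measured, 23 were at least 2-fold higher, none was lower, and the median log2 ratio was 2.65. Among the higher ones, Cd163, Vsig4, Ednrb and Igf1 reached 50 UMIs only through the cells in which they were higher. All gene lists were also chosen with earlier results of these data known. No list count in these comparisons is therefore set against the shares over all genes. Mrc1, the CD206 mannose receptor, was at 2532.5 against 263 CPM, a ratio of 9.63 (9.11 to 10.2). Cd163, the hemoglobin scavenger receptor, was at 115.9 against 2.59 CPM. Stab1, another scavenger receptor, was higher by a ratio of 7.81, and Selenop, the selenium carrier, by 4.23. These 4 genes were higher in 8 of 8 pools.

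Secreted factors and further receptors of the same list were among the higher genes. The chemokine Ccl8 was at 8491 against 54.4 CPM, a ratio of 156 (142 to 172). The growth factor Igf1 was at 208 against 4.19 CPM, and Gas6, a bridge between dying cells and TAM receptor kinases, at 602 against 25.5 CPM. Pf4, a chemokine, was higher by a ratio of 7.11 and F13a1, a coagulation factor subunit, by 12.5. Vsig4, a complement receptor, was at 93.7 against 0.62 CPM, and Ednrb, an endothelin receptor, at 133 against 2.22 CPM. The transcription factor gene Maf was higher by a ratio of 5.83, whereas the lipid receptor Cd36, at 0.98, did not pass 2-fold.

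Genes of antigen presentation and of recruited monocytes were on the other side. Of 8 listed, 6 were at least 2-fold lower and none was higher. The MHC class II genes H2-Ab1, H2-Aa, H2-Eb1 and their chain Cd74 summed to 5790 against 39236 CPM, a ratio of 0.15, and were lower in 8 of 8 pools. Ly6c2, a monocyte surface gene, was at 29.4 against 159 CPM and the monocyte chemokine receptor Ccr2 at 12.7 against 29.9 CPM. Plac8 (0.72) and the fractalkine receptor Cx3cr1 (0.88) did not pass 2-fold.

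C5ar1, the complement C5a receptor that the study followed on macrophages, was at 429 against 206 CPM, a ratio of 2.08 (1.88 to 2.29), and was higher in 8 of 8 pools. Its log2 ratio of 1.05 lay close to the 2-fold line, and it was 0.99 without pool 1, 0.95 without thinning and 0.84 when 1 of the 7 genes was enough. The macrophage marker Adgre1 was higher by a ratio of 2.59. Csf1r, C1qa, C1qb and Cd68 had ratios of 1.47 to 1.74 and did not pass 2-fold. The cell cycle genes Mki67 and Top2a, at 1.17 and 0.76, did not pass it either.

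**Figure D5:**
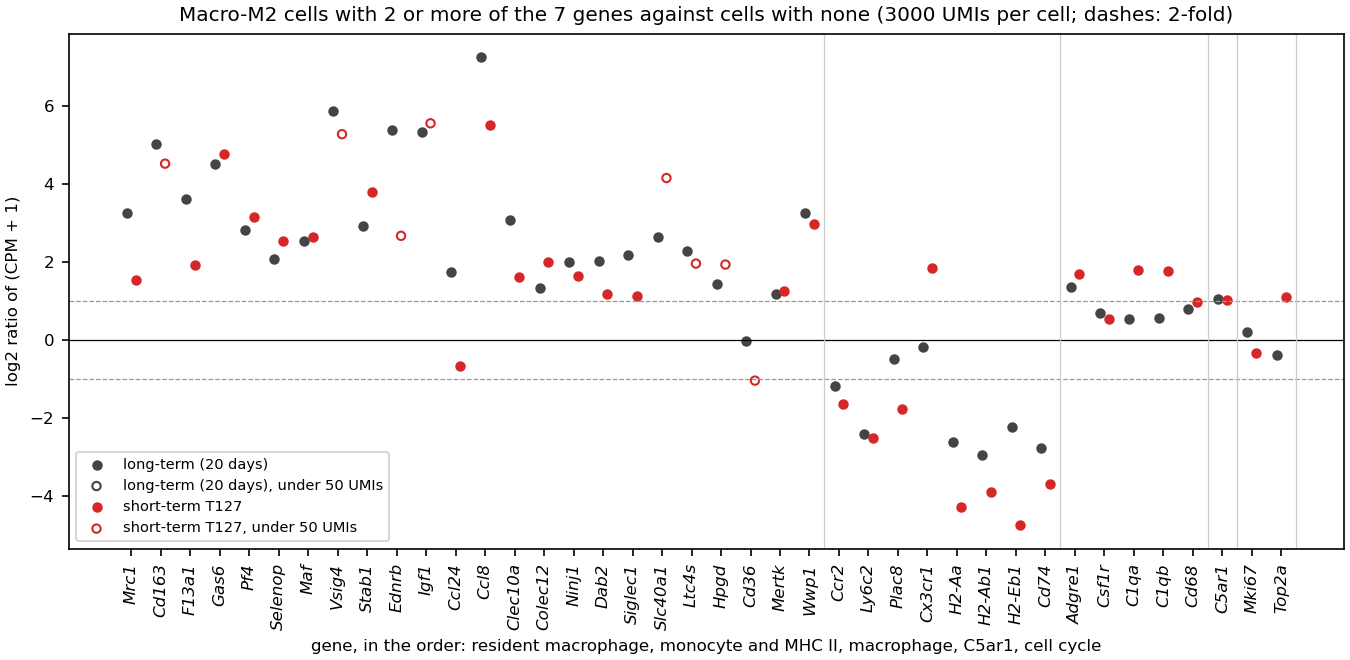
Log2 ratio of CPM + 1 between Macro-M2 cells with at least 2 of the 7 genes and cells with none, for listed genes in the long-term (black) and short-term T127 (red) experiment, with open points for genes under 50 UMIs and dashed lines at 2-fold. Most resident macrophage genes lie above the upper dashed line, with Ccl8 highest in the long-term cells, and the MHC class II genes lie below the lower line in both experiments.

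Of 15 listed relatives of the 7 genes, Cd209h was not in the count tables and 7 could be compared. Cd209b (a ratio of 18.2) and Cd209d (6.44) were higher in the cells with the 7 genes, whereas Cd209a, a gene of monocyte-derived dendritic cells, was at 0.37, from 15 UMIs in the cells with the 7 genes, lower in 5 of 8 pools and higher in 3. Havcr2, which encodes TIM-3, was lower in 8 of 8 pools, at 22.2 against 118 CPM. Cd44, another hyaluronan receptor (0.83), and the carbonyl reductases Cbr1 (1.47) and Cbr3 (1.16) did not pass 2-fold.

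Markers of other cells did not all run the same way. Of the epithelial markers, Epcam was at 15.1 CPM in the cells with the 7 genes and at 92.1 CPM in those without, while Krt8 was at 16.7 against 12.3 CPM. The neutrophil genes S100a8 and S100a9 were at 31.7 against 178 CPM and 34.9 against 86.5 CPM. Hba-a1 of red cells was at 1064 against 931 CPM. Of the lymphatic markers, Pdpn was at 34.1 against 36.7 CPM, and Prox1, Flt4, Mmrn1, Ccl21a and Reln were at 0 or 1 UMI in either group of cells. Of the dendritic markers, Zbtb46 had 9 against 10 UMIs (7.14 against 1.23 CPM), Ccr7 had 6 against 82 and Xcr1 had 0 against 7, while Flt3 and Clec9a were at 0 in both. Of the blood endothelium markers, Pecam1 was lower, with 5 against 75 UMIs (3.97 against 9.24 CPM) and in 7 of 8 pools. Kdr ran the other way, with 10 against 32 UMIs (7.94 against 3.94 CPM). Cdh5 had 1 against 7 UMIs and Plvap 1 against 8. Of the fibroblast markers, Dcn was at 27.8 against 47.7 CPM and Col1a1 at 11.9 against 5.91 CPM, neither past 2-fold on the log2(CPM + 1) scale. The part of these cells in the other differences was not tested.

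Beyond the lists, the 10 genes with the highest ratio held C4b (330 against 10.8 CPM), a complement component, Pmp22 (352 against 15.4 CPM), a myelin protein, and Fcgrt (833 against 75.9 CPM), the neonatal Fc receptor. The other 7 were Ccl8, Gas6, Igf1, Ednrb, F13a1, Cd163 and Vsig4. The 10 lowest were Chil3, Asgr2, Il1r2, Il1a, Napsa, Cd207, Adamdec1, Ccl17, H2-M2 and Cytip. Chil3, a chitinase-like protein, was at 73.8 against 1275 CPM and was lower in 7 of 8 pools. The dendritic cell chemokine Ccl17 had 0 against 610 UMIs, and the interleukin gene Il1a was at 19.0 against 285 CPM.

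In T127 the same comparison set 79 Macro-M2 cells with at least 2 of the 7 genes against 930 with none. Of 6065 genes, 6.13% were at least 2-fold higher and 11.4% at least 2-fold lower, with a median log2 ratio of -0.01. Of 17 resident macrophage genes with at least 50 UMIs, 15 were at least 2-fold higher, none was 2-fold lower, and the chemokine Ccl24 passed neither. Among the higher ones, Gas6 reached 50 UMIs only through the cells with the 7 genes. Ccl8 was at 2359 against 50.2 CPM, Pf4 at 8616 against 965 CPM, Gas6 at 321 against 10.8 CPM and Stab1 at 658 against 46.6 CPM. Mrc1 was at 2536 against 871 CPM, and its level in the cells without the 7 genes was thus higher than the 263 CPM of the long-term ones.

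MHC class II genes of T127 were at 1004 against 15023 CPM summed, a ratio of 0.07, lower in 4 of 4 pools, and the log2 ratio of -3.90 was -4.80 without pool 4. Of the monocyte genes, Ly6c2 (0.17), Plac8 (0.30) and Ccr2 (0.31, from 5 against 187 UMIs) were each lower in 4 of 4 pools. Only Cx3cr1 of that list was higher. C5ar1 was at 409 against 198 CPM (2.07, interval 1.65 to 2.57), higher in 4 of 4 pools, and its log2 ratio of 1.04 became 0.90 without thinning and 0.75 when 1 of the 7 genes was enough. Some ratios lay on the other side of 1 than in the long-term cells. Ccl24 had a ratio of 3.51 in the long-term cells and 0.62 (interval 0.22 to 1.39) in T127. Pdpn went from 0.93 to 2.04 and Top2a from 0.76 to 2.21 (0.95 to 4.55). Cx3cr1 had a T127 ratio of 3.70, Il1a of 3.57 and Cd209d of 0.35, which rested on 2 UMIs in the cells with the 7 genes (interval 0.04 to 1.30). The difference between the experiments was not tested. Within T127, Cd44 was lower in the cells with the 7 genes than in those without (0.43), and C1qa was higher (3.49). Of the markers of other cells in T127, Epcam was at 12.7 against 136 CPM but Krt8 at 25.3 against 10.8 CPM, from 6 and 30 UMIs. S100a8 and S100a9 had ratios of 0.46 and 0.33, and Hba-a1 was at 4.22 against 72.4 CPM. What part these cells had was not tested.

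The short-term models were set side by side as whole clusters. The 4 pools of a model mix tumors that the tables do not tell apart, so pools were not taken as separate tumors, no test was run, and the tumor model cannot be told apart from the capture and pooling of its own libraries. Summed over the 7 genes, T127 Macro-M2 cells were at 172 CPM (pools 145 to 212) and T22 cells at 28.6 CPM (17.3 to 37.6), a ratio of 6.03 (5.30 to 6.88). Without Cbr2 the ratio was 9.22.

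Of 10313 genes with at least 50 UMIs over both models, 7.42% were at least 2-fold higher in T127 and 6.29% at least 2-fold lower. Folr2, Cd209f, Cd209g and Fcna reached 50 UMIs through T127 alone, so no count of the 7 genes is set against these shares. Cbr2 and Timd4 reached 50 UMIs in each model. Cbr2 was higher in T127 by a ratio of 3.42 (2.86 to 4.12), and Timd4, at 0.51 (0.36 to 0.70), was not 2-fold lower on the log2(CPM + 1) scale. Folr2 was higher by a ratio of 30.3 (20.8 to 46.2). Fcna had 179 UMIs in T127 and 1 in T22, a ratio of 115 with a counting interval of 20.3 to 4550. Cd209f had 65 and 2 UMIs (20.8, interval 5.53 to 175), and Lyve1, which fell short of 50 UMIs, had 41 and 1. Cd209g had 52 UMIs in T127 and 0 in T22, a ratio of 11.1 if T22 is allowed 3 UMIs as a whole. The counting interval of its ratio starts at 8.71.

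For Folr2, Fcna and Cbr2 every T127 pool lay above every T22 pool. Over all genes measured that share was 26.9%, against which nothing is read for the 7 genes, since Folr2 and Fcna reached 50 UMIs through T127 alone. For the other genes the pools overlapped. Without T127 pool 1 the log2 ratio of Cd209g dropped from 2.22 to 0.46, and that pool held the single cell with 45 of the 52 UMIs.

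Other resident macrophage genes did not all follow the 7 genes between the models. Of 25 listed, 8 were at least 2-fold higher in T127 and 3 at least 2-fold lower, with a median log2 ratio of 0.71. Vsig4 reached 50 UMIs through T127 alone, and Hpgd and Slc40a1 did so through T22 alone. The median over all genes was 0.06, and nothing is read from the list beside it or beside the shares of all genes. Mrc1 was at 1047.5 against 186 CPM and Pf4 at 1942 against 135 CPM. Hpgd, which breaks down prostaglandins, was at 1.41 in T127 against 59.5 CPM in T22, and Cd36 at 12.6 against 79.1 CPM. Of the 8 listed genes of monocytes and antigen presentation, 1 was at least 2-fold higher in T127 and 4 at least 2-fold lower. Ly6c2 was higher, at 562 against 134 CPM, Plac8 at 784 against 406 CPM did not pass 2-fold, and Cx3cr1 was lower, at 68.2 against 456 CPM. MHC class II genes summed to 14607 CPM in T127 and 35653 CPM in T22, and C5ar1 was at 201 and 153 CPM.

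None of the 5 macrophage markers passed 2-fold between the models, and C1qa (0.66) and Csf1r (0.54) were lower in T127. Markers of other cells differed in T127 Macro-M2 cells. Epithelial markers summed to 156 CPM in T127 and 53.8 CPM in T22, and T cell markers to 3.94 and 17.8 CPM. Neutrophil markers were at 55.5 to 286 CPM in the T127 pools and, in the T22 pools, at 31.9 CPM in pool 1 and 3.10 to 6.68 CPM in the others. Red cell markers were at 1443 CPM in T127 pool 3 and 11.6 to 36.1 CPM in the other T127 pools, and at 0.40 to 1.03 CPM in T22. Of the fibroblast markers, Dcn was at 29.7 against 9.11 CPM, Pdgfra had 49 against 1 UMIs and Col1a1 was at 4.64 against 7.80 CPM. Of the endothelial markers, Pecam1 was at 31.6 against 7.80 CPM and Kdr at 10.4 against 5.49 CPM. Dendritic markers summed to 18.1 CPM in T127 and 37.3 CPM in T22, with Flt3 at 0.91 against 10.2 CPM. The part of these cells in the difference was not tested. Pdpn, listed as a lymphatic marker, was at 183 against 5.38 CPM, while Prox1, Mmrn1, Ccl21a and Reln were at 0 in both.

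Lyve1 is also known from lymphatic endothelium, so the endothelial clusters were searched for it. Lyve1 was detected in 3 of 249 long-term, 0 of 88 T22 and 2 of 118 T127 endothelial cells. Prox1, the transcription factor that sets lymphatic identity, was detected in 2, 1 and 0 of them. At least 1 listed lymphatic marker other than Pdpn was detected in 64 of 249, 53 of 88 and 59 of 118 cells, and for the most part it was Flt4, a receptor for lymphatic growth factors, in 61, 53 and 58 cells. No endothelial cell had Lyve1 with Prox1 or with any of the other 6 genes. The 0 of 88 cells allows up to 3.41% of cells with a Lyve1 UMI (3 counts) and sets no limit on cells that express it.

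The genes whose profile was most like that of the 7 genes were sought over the 22 long-term clusters, among 11864 genes of at least 10 CPM in a cluster, by Pearson correlation of log2(CPM + 1). These correlations describe 22 clusters that share pools and differ in depth. For the sum of all 7 genes the leading profiles were Clta (0.90), Shtn1 (0.90) and Lsr (0.87), and Epcam was among the 10 nearest. Cbr2 made up 798 of the 800.1 CPM of that sum in Malign_2. Without Cbr2, a choice made after its malignant level was seen, the leading profiles were Nxpe5 (0.96), Sirpb1b (0.96), Fcrls (0.95), Mrc1 (0.95) and Pf4 (0.95). Among the 7 genes themselves, pairs without Cbr2 had correlations of 0.89 to 0.96 and pairs with Cbr2 of 0.26 to 0.36.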

How the data were processed

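Tumors of female FVB mice were dissociated, tagged, pooled and captured with 10x 3' chemistry. Per the submitters' processing notes, Cell Ranger 6.0.0 and the mouse build GRCm38 were used, and per the study's methods reads in introns were counted. The authors removed cells with few genes or above 20% mitochondrial reads, called doublets and clustered on 4000 genes, all 7 genes here included. The deposited tables hold raw UMI counts per cell with the authors' cluster names. The deposited normalized values of the same cells were not used.

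The 7 genes and all gene lists were chosen with earlier results of these data known. Counts were summed per cluster and pool and divided by the UMIs of the same cells (CPM), with exact Poisson intervals for levels, Clopper-Pearson intervals for shares and conditional binomial intervals for ratios. All cover counting error only. Cells were thinned to 3000 UMIs at random for shares and pairs. Expected pairs came from the shares within each pool. Named genes were the 7 genes, the listed genes and markers, the 10 most similar profiles, and the 10 highest and 10 lowest ratios (log2 with a pseudocount of 10 CPM, at least 50 UMIs). Shallower cells and pools of unequal depth limit what was detectable. A listed gene is not reported here, though it is among the list counts. The ratio and pair calculations were tested on simulated data. No p-value was computed, since cells are not replicates and pools mix tumors. Alternatives were other depths, cell filters, numbers of genes required, pseudocounts and leaving out each pool. Sequences of the 7 genes were not used here. Calculations were run in Python (version 3.11.15) with numpy (version 2.4.6), scipy (version 1.17.1) and pandas (version 2.3.3), and plots were drawn with matplotlib (version 3.10.9).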

Additional observations from a re-analysis of the deposited data

Results flagged for a closer look

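Of 30 groups of pools examined in Macro-M2 cells, 5 held a pool far from the others by Dixon's criterion. In 4 of these 5 the other pools were at 0, so that 1 or 2 UMIs or cells were enough, and the rate of about 1 in 20 groups that chance gives does not apply to them. In short-term T22, Lyve1 was at 0.51 CPM in pool 3, Cd209f at 0.83 CPM in pool 4 and Fcna at 0.44 CPM in pool 2, against 0 in the other pools. The share of T22 cells with at least 2 of the 7 genes was 1.10% in pool 4, from 2 cells, and 0 in the other pools. In short-term T127, Cd209g was at 13.3 CPM in pool 1, with the nearest pool at 0.63 CPM, and 45 of its 52 UMIs over all pools were in 1 cell of pool 1.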

How the results depend on the processing

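Of 245 values recomputed under settings other than leaving out a pool, 208 stayed within the spread between pools, or within 1.5 times for counts of genes, 37 moved beyond it and none changed sign. Values without a pool were held against the spread of the same pools, which they can hardly leave, and with them 38 of 581 moved. Shares followed depth. Without thinning, the share of Macro-M2 cells with at least 2 of the 7 genes was 19.0% in the long-term, 1.49% in the T22 and 14.9% in the T127 experiment, and in T127 it was 4.09% at 2000 UMIs and 9.96% at 5000 UMIs. When at least 1 gene was enough, 383 genes were 2-fold higher and 255 lower in the long-term cells, and 211 and 290 in T127. When at least 3 were needed, 806 and 1597 were in T127. Only 14 thinned T127 Macro-M2 cells had at least 3 genes, so few UMIs were enough to pass 2-fold. With a pseudocount of 10 CPM the log2 ratio of T127 to T22 was 2.95 for Folr2, 1.16 for Fcna and 0.45 for Cd209g. Leaving out each pool in turn, the 7 genes summed ranged from 388 to 426.5 CPM in the long-term, 25.3 to 32.3 CPM in the T22 and 161 to 182 CPM in the T127 experiment. The share with at least 2 genes ranged from 11.5 to 12.3%, 0 to 0.41% and 6.56 to 6.88%. Counts of genes ranged from 670 to 707 higher and 475 to 484 lower in the long-term and from 320 to 340 and 653 to 689 in the T127 experiment. The log2 ratio of the sum ranged from 2.38 to 2.72. No paired analysis was possible between T22 and T127 because their pool numbers name captures of different tumors. Cells with and without the genes were compared within each pool, given as counts of pools.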
